A study of Sus scrofa with 8 samples.

Results

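The genes described here encode the machinery of macroautophagy, in left ventricular tissue of 4 wild-type (WT) pigs and 4 gene-edited pigs. Members were the 44 genes of a fixed list, matched by symbol in the deposited table and kept if 4 or more of the 8 libraries had 10 or more normalized counts. All 44 were in the table and all 44 passed, out of 11660 genes that passed and 14718 rows that name a gene. The series models long QT syndrome, a disorder of ventricular repolarization, in pigs with an edited KCNH2 gene. WT replicates 1 to 4 are the pigs numbered 1, 2, 4 and 5. Mutant replicates 1 to 3, pigs 6, 7 and 8, carry a genotype label naming a KCNH2 mutation, and mutant replicate 4, pig 9, carries one naming a KCNH3 mutation. The labels give no allele, zygosity, age, sex, breed, litter or treatment, so how closely the groups were matched is not known. They number each pig but say nothing of how the tissue was collected or in which batches, and p-values measure only the spread between these samples.

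Macroautophagy encloses cytoplasm in a double membrane and delivers it to the lysosome. The ULK kinase complex starts the process, a class III phosphatidylinositol 3-kinase (PI3K) complex marks the membrane with phosphatidylinositol 3-phosphate (PI3P), and lipid transfer and scrambling proteins expand it. A ubiquitin-like conjugation system then attaches ATG8 proteins, the LC3 and GABARAP families, to the membrane, where cargo receptors bind them. In heart muscle the pathway removes worn mitochondria and protein aggregates, and mutations of LAMP2 cause Danon disease, a cardiomyopathy with accumulated autophagic vacuoles. Transcript levels do not measure autophagic flux, which also depends on protein modification and degradation.

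Libraries held 15.9 to 22.4 M reads (M, mega). The 13 mitochondrially encoded genes took 31.7% to 87.9% of the reads of WT libraries and 15.9% to 27.5% of those of mutant libraries, so nuclear genes had 2.53 M reads in WT replicate 3, 7.53 M in WT replicate 4 and 11.5 to 16.2 M elsewhere. A single read of WT replicate 3 therefore counts for 4.84 on the normalized scale. KCNH2 had 901 ± 754 normalized counts for the WT group and 1538 ± 495 for the mutant group (SD, n = 4; exact two-sided permutation p = 0.257), and a gene-level count does not show an edit. KCNH3 had at most 6.07 normalized counts in any library. Of 7 cardiomyocyte markers, 6 were in the table and none of these was at 0 in any library. Their summed level was 410690 to 529446 normalized counts in WT and 616558 to 683807 in mutant libraries, without overlap. Fibroblast markers summed to 6699 to 117078 normalized counts in WT and 26652 to 72571 in mutant libraries, endothelial markers to 8432 to 39442 and 15417 to 23014, smooth muscle markers to 8266 to 33553 and 10647 to 19567, and macrophage markers to 625 to 4133 and 1144 to 3402. Erythroid markers summed to 17243, 31315, 28534 and 49.7 for WT replicates 1 to 4 and 2484 to 2950 in the mutant group. Neutrophil markers summed to 63.1 to 2198 and 14.05 to 319, lymphocyte markers to 41.3 to 108 and 45.7 to 60.5, and adipocyte markers to 0 to 86.1 and 31.9 to 289. CD68, MRC1, S100A8, AHSP, 5 lymphocyte and 3 adipocyte markers were at 0 in at least 1 library. In bulk tissue, fewer cells of a type and less RNA per cell cannot be told apart, and the part of tissue composition or of the mitochondrial share in the differences below was not tested.

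As a set the autophagy genes lay evenly around 0, with a median slightly below that of all genes. The log2 difference, mutant minus WT, was above 0 in 22 members and below 0 in 22, where 56.9% of all genes lay above 0. The median was -0.01, beside 0.12 over all genes tested. These differences are means on the log2(normalized count + 1) scale, where a library without reads weighs heavily: ATG14 was at 2.19 and EPG5 at 2.02 on this scale and at 1.09 and 0.78 in DESeq2. No member passed limma with Benjamini-Hochberg adjustment over all genes (smallest adjusted p = 0.218), and neither did any of the 11660 genes (0%). At an unadjusted p under 0.05 limma found 3 members, ATG2B on the higher side and GABARAP and GABARAPL1 on the lower side. That is 6.82% of the members, beside 13.9% of all genes (7.06% higher and 6.8% lower). Groups did not overlap for 2 members, ATG2B and ATG9A, both higher in mutant libraries, or 4.55% of the members beside 11.4% of all genes (6.17% higher and 5.22% lower). Among the 44, ATG2B is called higher and GABARAPL1 lower in the authors' deposited table, beside 4.54% of all genes in that table (1.32% higher and 3.23% lower). edgeR on the recovered reads called 0 of 44 (0% of all genes) and found 5 at an unadjusted p under 0.05 (14.9% of all genes). DESeq2 called 2, ATG2B and GABARAPL1 (4.56% of all genes), and found 7 at an unadjusted p under 0.05 (16.4% of all genes). The authors used DESeq2 on the same libraries, so these calls largely repeat those of their table and are not separate evidence. With array quality weights limma called 0 of 44 (0.789% of all genes). For both directions together, the members' shares in these counts lay near or below those of all genes.

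**Figure D1:**
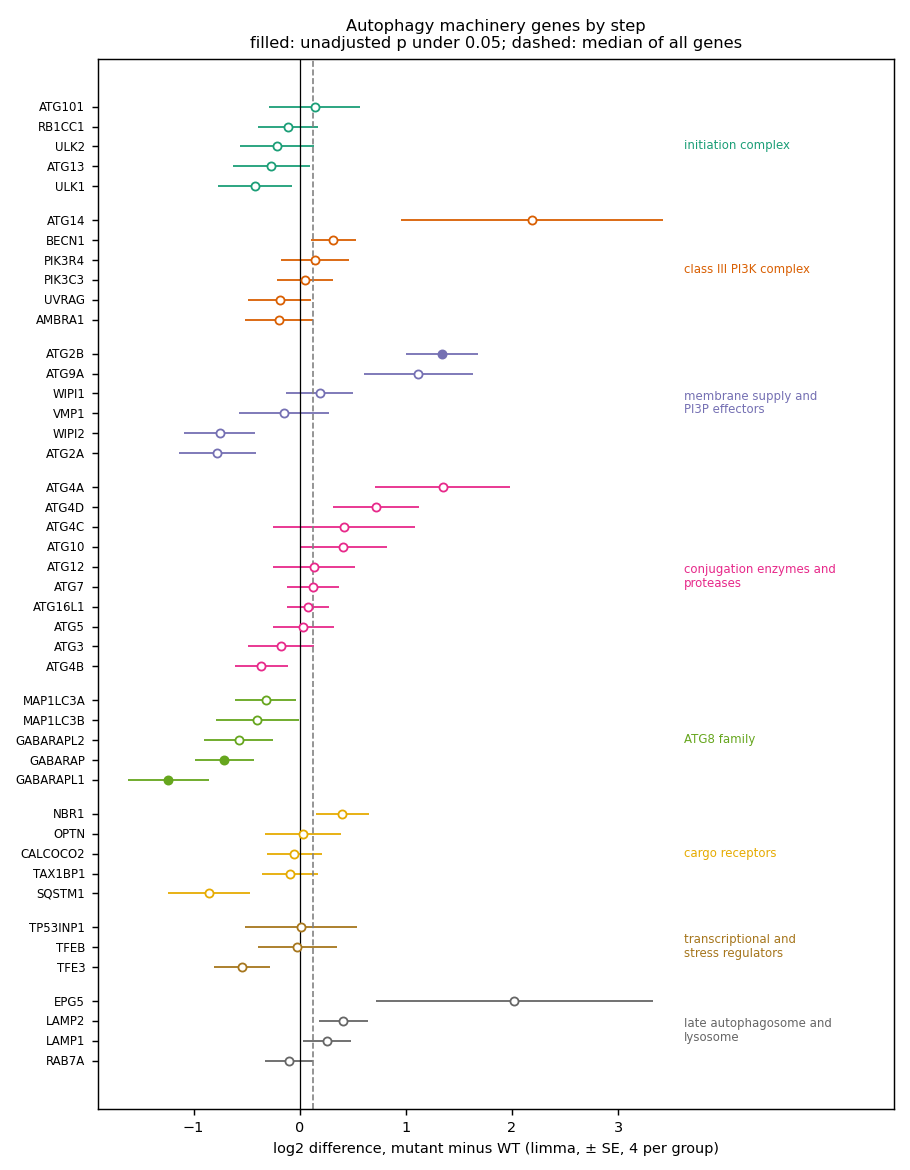
Log2 difference, mutant minus WT, of each of the 44 autophagy genes with its standard error (limma, 4 libraries per group), grouped by step; filled points have an unadjusted p under 0.05 and the dashed line is the median of all genes, 0.12. Points lie on both sides of 0 in most steps, while all 5 ATG8 family genes lie below 0, from -1.24 for GABARAPL1 to -0.32 for MAP1LC3A.

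Of the 5 genes of the initiation complex, 0 had an unadjusted p under 0.05 in limma, beside 13.9% of all genes. Their median log2 difference was -0.22. RB1CC1 encodes the scaffold that holds the complex together. Normalized counts of RB1CC1 were 1798, 4005, 2543 and 2366 across WT replicates 1 to 4, against 2412, 2918, 2151 and 2105 across mutant replicates 1 to 4. All mutant values lay inside the WT range, and the log2 difference was -0.11 ± 0.28 (SE; limma adjusted p = 0.865). The kinase genes ULK1 and ULK2 had log2 differences of -0.42 ± 0.35 and -0.22 ± 0.35 (SE), and the adaptor gene ATG13 one of -0.27 ± 0.36 (SE). ATG101, which stabilizes ATG13, was at 0.14 ± 0.43 (SE), but only 16 reads stood behind its value in WT replicate 3. The number of ULK1 reads per ULK2 read, a ratio that does not depend on how libraries are scaled, was 0.493 to 0.769 in WT and 0.439 to 0.671 in mutant libraries.

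Genes of the class III PI3K complex lay on both sides of 0, with a median of 0.10 over 6 genes. An unadjusted p under 0.05 in limma was found for 0 of 6, beside 13.9% of all genes. BECN1, the regulatory subunit that many signals act on, had 420, 381, 470 and 385 normalized counts across WT replicates 1 to 4, against 642, 479, 463 and 487 across mutant replicates 1 to 4. Only mutant replicate 3 fell inside the WT range, but mutant replicate 1 stood far above the other mutant libraries, and the log2 difference was 0.31 ± 0.21 (SE; limma adjusted p = 0.502). The catalytic subunit gene PIK3C3 and its partner PIK3R4 were at 0.05 ± 0.26 and 0.14 ± 0.32 (SE). AMBRA1, which links BECN1 to ULK1, had 379, 355, 688 and 869 normalized counts across WT replicates 1 to 4, against 384, 527, 496 and 465 across mutant replicates 1 to 4. WT replicates 3 and 4 were high and the other WT libraries low, so that the mean difference of -0.20 ± 0.32 (SE) was 0.34 without that pair of libraries.

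ATG14 and UVRAG are alternative subunits that direct the PI3K complex to autophagosome formation and to endosomes. ATG14 had 21.5, 44.1, 0 and 76.4 normalized counts across WT replicates 1 to 4, against 114, 83.5, 47.2 and 70.8 across mutant replicates 1 to 4. No read was counted in WT replicate 3, where zero reads leave room for up to 3, or 14.5 normalized counts, from counting error alone. The log2 difference of 2.19 ± 1.24 (SE; limma adjusted p = 0.438) rested on that library and was 0.83 without it. UVRAG was at -0.19 ± 0.30 (SE). With ATG14 set to 3 reads in WT replicate 3, the mean log2 ratio of ATG14 to UVRAG reads was -3.85 ± 1.23 for the WT group and -2.43 ± 0.44 for the mutant group (SD, n = 4; exact two-sided permutation p = 0.0571, adjusted p = 0.229 over the 8 ratios computed). The groups overlapped.

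Genes that supply membrane to the growing autophagosome had differences in opposite directions. ATG2A and ATG2B are related lipid transfer proteins that move phospholipid from the endoplasmic reticulum into the growing membrane. ATG2B had 339, 384, 150 and 416 normalized counts across WT replicates 1 to 4, against 656, 996, 674 and 760 across mutant replicates 1 to 4. Every mutant library was above every WT library. The means were 322 ± 119 for the WT group and 772 ± 156 for the mutant group (SD, n = 4), a 2.39-fold difference, and the log2 difference was 1.34 ± 0.34 (SE; limma adjusted p = 0.218). ATG2B has a log2 fold change of 1.24 in the authors' deposited table (adjusted p = 0.0196). The lowest WT value, in replicate 3, came from 31 reads, and without that library the log2 difference was 1.01. Without WT replicates 3 and 4 it was 1.07.

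ATG2A went the other way. It had 320, 399, 795 and 894 normalized counts across WT replicates 1 to 4, against 295, 424, 305 and 275 across mutant replicates 1 to 4. Mutant replicate 2 lay above WT replicates 1 and 2, so the groups overlapped, and the high WT values were those of replicates 3 and 4. The log2 difference was -0.78 ± 0.36 (SE; limma adjusted p = 0.370), and -0.16 without WT replicates 3 and 4. Within each library the pair separated the groups. There were 0.944, 1.04, 5.29 and 2.15 ATG2A reads per ATG2B read across WT replicates 1 to 4, against 0.450, 0.426, 0.453 and 0.361 across mutant replicates 1 to 4. No mutant library came near the lowest WT ratio. The mean log2 ratio was 0.87 ± 1.15 for the WT group and -1.25 ± 0.15 for the mutant group (SD, n = 4), a difference of -2.12. The exact two-sided permutation p was 0.0286, the smallest that 70 assignments of the samples allow, and it was 0.229 after adjustment over the 8 ratios. Without WT replicates 3 and 4, whose ratios were the highest, the difference was -1.24.

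**Figure D2:**
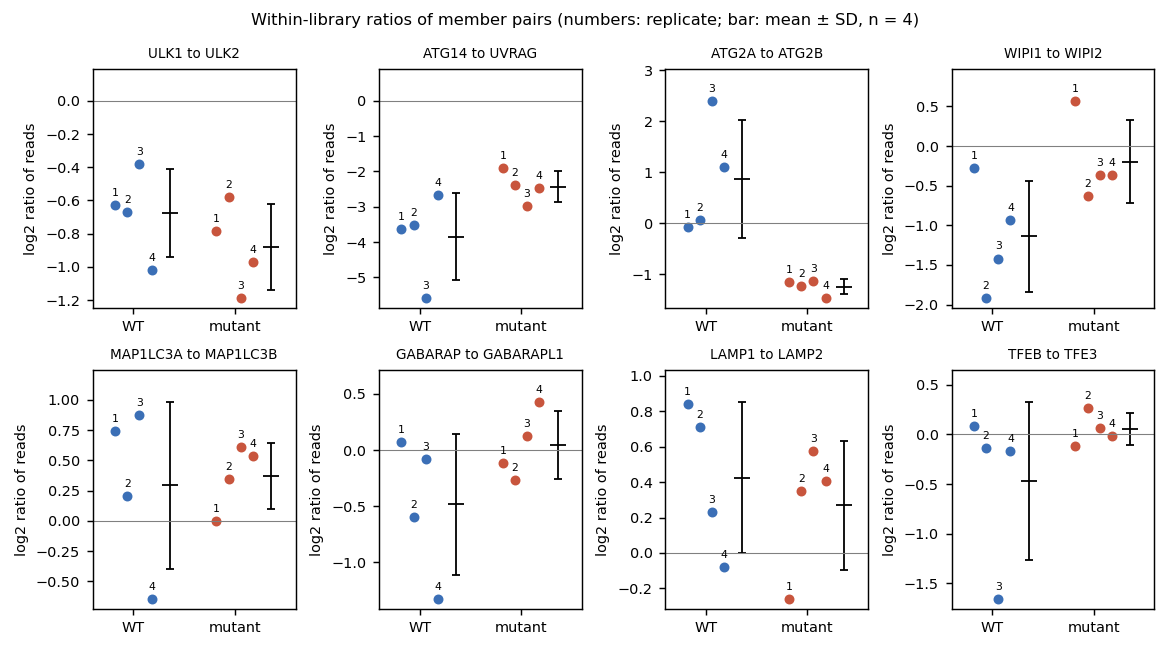
Log2 ratio of the reads of 2 autophagy genes within each library, for 8 pairs (points: libraries, numbered by replicate; bars: mean ± SD, n = 4; ATG14 in WT replicate 3 is set to 3 reads, so that point is an upper limit). The groups separate only for ATG2A to ATG2B, where the mutant libraries lie between -1.47 and -1.14 and the WT libraries between -0.08 and 2.40.

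ATG9A encodes the scramblase of the vesicles that seed the autophagosome. Normalized counts of this gene were 1132, 1626, 242 and 1051 across WT replicates 1 to 4, against 1960, 1960, 1637 and 1645 across mutant replicates 1 to 4. The groups did not overlap, but WT replicate 2 and mutant replicate 3 were almost level. The log2 difference was 1.12 ± 0.51 (SE; limma adjusted p = 0.368), and 0.53 without WT replicate 3, in which 50 reads were counted. VMP1, another scramblase, had 963, 699, 349 and 216 normalized counts across WT replicates 1 to 4, against 392 to 454 over the mutant group. WT libraries lay on both sides of the mutant ones, and the log2 difference of -0.15 ± 0.43 (SE) was -0.94 without WT replicates 3 and 4.

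WIPI1 and WIPI2 bind PI3P on the forming membrane, and WIPI2 recruits the conjugation machinery there. WIPI2 had 616, 1083, 1516 and 1171 normalized counts across WT replicates 1 to 4, against 491, 1008, 558 and 531 across mutant replicates 1 to 4. Mutant replicate 2 reached the WT range, and the other mutant libraries lay below all WT libraries. The log2 difference was -0.75 ± 0.34 (SE; limma adjusted p = 0.361). That of WIPI1 was 0.19 ± 0.31 (SE). There were 0.265 to 0.822 WIPI1 reads per WIPI2 read in WT and 0.644 to 1.48 in mutant libraries, with overlap (exact two-sided permutation p = 0.114, adjusted p = 0.305).

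In the conjugation system 8 of 10 genes had a log2 difference above 0, beside 56.9% of all genes. The median was 0.13, close to the 0.12 of all genes. An unadjusted p under 0.05 in limma was found for 0 of 10, beside 13.9% of all genes. The core enzymes had differences near 0 beside their errors, other than ATG10. ATG7, the activating enzyme, was at 0.13 ± 0.25, ATG3 and ATG10, the conjugating enzymes, at -0.18 ± 0.31 and 0.41 ± 0.41, and ATG5, ATG12 and ATG16L1, which together form the ligase, at 0.03 ± 0.29, 0.13 ± 0.39 and 0.07 ± 0.20 (SE). ATG16L1 had 480 to 635 normalized counts in WT and 520 to 607 in mutant libraries, a narrow range. ATG12 ranged from 268 to 759 normalized counts within the mutant group alone.

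The ATG4 proteases, which trim ATG8 proteins before conjugation and release them afterwards, had differences on both sides of 0. ATG4A had 282, 164, 48.4 and 89.8 normalized counts across WT replicates 1 to 4, against 887, 186, 252 and 208 across mutant replicates 1 to 4. Mutant replicate 1 alone was far above the rest, and the other mutant libraries lay inside the WT range. The log2 difference was 1.35 ± 0.64 (SE; limma adjusted p = 0.382), 0.83 without mutant replicate 1 and 0.50 without WT replicates 3 and 4. In the pig reference annotation (RefSeq, Sscrofa11.1) ATG4A overlaps the proteasome gene PSMD10, whose reads could not be told apart from those of ATG4A if counting ignored strand. PSMD10 had 130 normalized counts in mutant replicate 1 and 115 to 281 across all libraries. The submitters' notes name GRCh38 instead, so whether these overlaps applied when reads were counted is not known. The part of such reads in the ATG4A value was not tested. ATG3, ATG4D, ATG7, ATG12, NBR1, SQSTM1 and WIPI1 also overlap another gene in that annotation. ATG4D had 1480, 1128, 576 and 376 normalized counts across WT replicates 1 to 4, against 1144, 1240, 1529 and 1235 across mutant replicates 1 to 4. The low values were those of WT replicates 3 and 4, and the log2 difference of 0.72 ± 0.40 (SE; limma adjusted p = 0.437) was -0.01 without them. ATG4B was at -0.36 ± 0.25 and ATG4C at 0.42 ± 0.67 (SE).

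All 5 ATG8 family genes had a log2 difference below 0, with a median of -0.57, where 56.9% of all genes lay above 0. They remained below 0 in each of the 20 alternative analyses, which reuse the same libraries and are not separate evidence. GABARAPL1 had the lowest difference of the 44 members. Normalized counts of this gene were 2809, 6622, 5983 and 7754 across WT replicates 1 to 4, against 2393, 3803, 1943 and 1583 across mutant replicates 1 to 4. Mutant replicate 2 lay above WT replicate 1, and the other mutant libraries lay below all WT libraries. The means were 5792 ± 2119 for the WT group and 2431 ± 973 for the mutant group (SD, n = 4), 2.38-fold higher in WT, and the log2 difference was -1.24 ± 0.39 (SE; limma adjusted p = 0.256). GABARAPL1 has a log2 fold change of -1.25 in the authors' deposited table (adjusted p = 0.0485). The difference was -0.91 without WT replicates 3 and 4.

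GABARAP followed with 2947, 4384, 5663 and 3096 normalized counts across WT replicates 1 to 4, against 2216, 3169, 2118 and 2131 across mutant replicates 1 to 4. As for GABARAPL1, mutant replicate 2 was the only mutant library inside the WT range. The log2 difference was -0.71 ± 0.28 (SE; limma adjusted p = 0.318). GABARAPL2, which works late in autophagosome maturation, was at -0.57 ± 0.33 (SE). The LC3 genes MAP1LC3A and MAP1LC3B were at -0.32 ± 0.29 and -0.40 ± 0.39 (SE). MAP1LC3B had 1054, 1442, 1269 and 2275 normalized counts across WT replicates 1 to 4, against 2133, 1265, 799 and 669 across mutant replicates 1 to 4. Mutant replicate 1 lay near the top of the WT range and mutant replicates 3 and 4 below it.

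The summed normalized count of the 5 genes was 9699, 15795, 17440 and 15817 across WT replicates 1 to 4, against 10410, 11061, 6892 and 6048 across mutant replicates 1 to 4. WT replicate 1 thus had a lower total than mutant replicates 1 and 2. GABARAPL1 made up 38.6% ± 8.78 of the family's reads for the WT group and 27.9% ± 4.80 for the mutant group (SD, n = 4), with ranges of 29.0% to 49.0% and 23.0% to 34.4%. GABARAP made up 27.5% ± 5.65 and 28.98% ± 5.82 (SD, n = 4). There were 0.399 to 1.05 GABARAP reads per GABARAPL1 read in WT and 0.833 to 1.35 in mutant libraries (exact two-sided permutation p = 0.200, adjusted p = 0.320). For MAP1LC3A to MAP1LC3B the mean log2 ratios were 0.29 ± 0.69 and 0.37 ± 0.27 (SD, n = 4; exact two-sided permutation p = 0.886). These shares are of reads, not of molecules, since no transcript lengths were used.

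**Figure D3:**
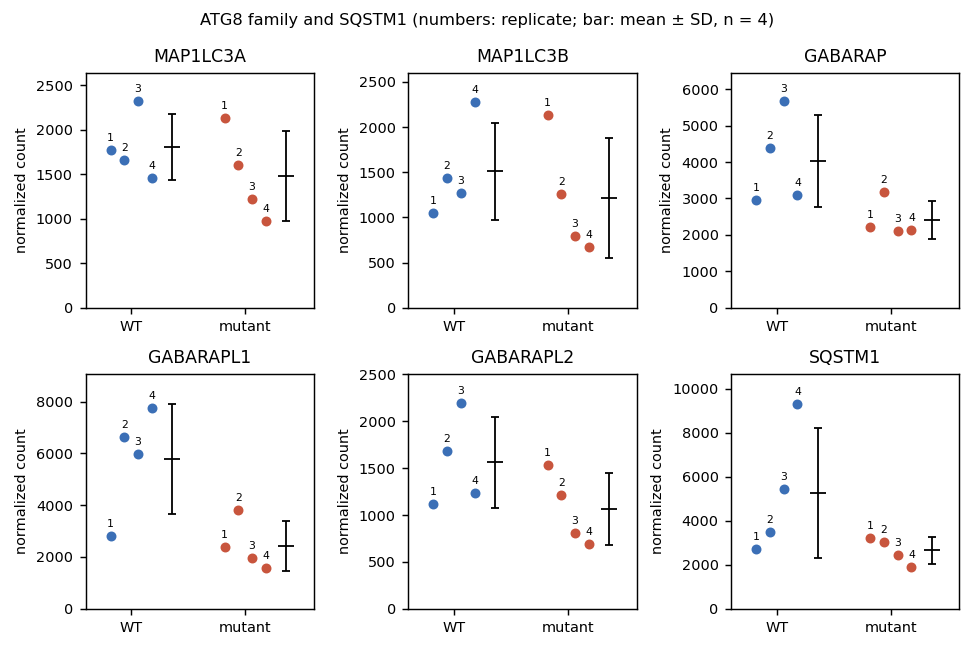
Normalized counts of the 5 ATG8 family genes and of the cargo receptor gene SQSTM1 in each library (points, numbered by replicate; bars: mean ± SD, n = 4). For GABARAPL1 3 of the 4 WT libraries lie above all mutant libraries, which reach 3803, and WT replicate 1 lies at 2809.

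Cargo receptors tether ubiquitinated proteins, organelles or bacteria to ATG8 proteins. Of their 5 genes 0 had an unadjusted p under 0.05 in limma (13.9% of all genes), and the median log2 difference was -0.05. SQSTM1 encodes the receptor p62. Normalized counts of this gene were 2726, 3499, 5450 and 9330 across WT replicates 1 to 4, against 3238, 3018, 2452 and 1912 across mutant replicates 1 to 4. WT replicates 2, 3 and 4 were above every mutant library, while WT replicate 1 lay among the mutant ones. The means were 5251 ± 2951 for the WT group and 2655 ± 596 for the mutant group (SD, n = 4), and the log2 difference was -0.85 ± 0.39 (SE; limma adjusted p = 0.364). It was -0.25 without WT replicates 3 and 4, the libraries with the highest mitochondrial shares. NBR1, a larger receptor of similar build, was on the other side at 0.40 ± 0.25 (SE). OPTN had 2190 to 2926 normalized counts in WT and 5633, 2643, 2089 and 1753 in mutant replicates 1 to 4. Mutant replicate 1 was above and mutant replicates 3 and 4 were below the whole WT range, with a log2 difference of 0.03 ± 0.36 (SE). TAX1BP1 and CALCOCO2 were at -0.09 ± 0.26 and -0.05 ± 0.26 (SE).

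TFEB and TFE3 are related transcription factors that drive lysosomal and autophagy genes when nutrient signalling is low. TFEB had 544, 772, 242 and 490 normalized counts across WT replicates 1 to 4, against 307, 532, 562 and 512 across mutant replicates 1 to 4, with the groups interleaved (log2 difference -0.02 ± 0.37 SE, and 0.06 when libraries were scaled to nuclear reads). TFE3 had 513, 851, 765 and 551 normalized counts across WT replicates 1 to 4, against 332, 443, 536 and 516 across mutant replicates 1 to 4. Mutant replicates 1 and 2 lay below the WT range and mutant replicates 3 and 4 at its lower end (log2 difference -0.54 ± 0.26 SE; limma adjusted p = 0.385). The log2 ratio of TFEB to TFE3 reads was -0.47 ± 0.80 for the WT group and 0.05 ± 0.16 for the mutant group (SD, n = 4; exact two-sided permutation p = 0.171, adjusted p = 0.320). TP53INP1, a stress-induced protein that binds ATG8 proteins, had 366, 437, 378 and 1890 normalized counts across WT replicates 1 to 4, against 573, 964, 529 and 401 across mutant replicates 1 to 4. The single high value was that of WT replicate 4. The log2 difference was 0.01 ± 0.53 (SE) in limma, -0.32 in edgeR and DESeq2, and 0.57 in limma without that library.

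At the lysosomal end 0 of 4 genes had an unadjusted p under 0.05 in limma (13.9% of all genes), with a median log2 difference of 0.33. RAB7A, the small GTPase of late endosomes and lysosomes, had 2765, 2509, 2897 and 1912 normalized counts across WT replicates 1 to 4, against 2756, 2048, 2299 and 2231 across mutant replicates 1 to 4, all within the WT range (log2 difference -0.10 ± 0.23 SE; limma adjusted p = 0.844). LAMP1 and LAMP2 encode the major membrane glycoproteins of the lysosome. LAMP2 had 1131, 1291, 1158 and 1583 normalized counts across WT replicates 1 to 4, against 2294, 1696, 1409 and 1531 across mutant replicates 1 to 4. Mutant replicates 1 and 2 were above every WT library and the other mutant libraries inside the WT range (log2 difference 0.41 ± 0.23 SE; limma adjusted p = 0.439). LAMP1 was at 0.26 ± 0.22 (SE), and -0.01 without WT replicates 3 and 4. There were 0.947 to 1.79 LAMP1 reads per LAMP2 read in WT and 0.835 to 1.49 in mutant libraries. EPG5, a tether for autophagosome and lysosome fusion, had 46.9, 66.5, 0 and 106 normalized counts across WT replicates 1 to 4, against 92.2 to 103 over the mutant group. As for ATG14, no read was counted in WT replicate 3, and the log2 difference of 2.02 ± 1.30 (SE; limma adjusted p = 0.487) was 0.49 without that library.

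The autophagy genes varied more among WT than among mutant libraries, as did most genes. The SD of the log2 value was wider in WT for 32 of 44 members (72.7%), beside 84.3% of all genes, with a median SD of 0.55 in WT and 0.32 in mutant libraries (0.70 and 0.33 over all genes). WT replicate 3 held the highest or the lowest of the 8 values for 21 members (47.7%, beside 50.7% of all genes) and WT replicate 4 for 20 (45.5%, beside 42.2%). WT replicate 4 was the highest library for 14 members (31.8%, beside 21.3% of all genes), among them ULK1, ULK2, ATG13, GABARAPL1 and SQSTM1. In the mutant group, mutant replicate 1 was the highest library for 13 members (29.5%, beside 18.6% of all genes), among them BECN1, ATG4A, OPTN and LAMP2. Mutant replicates 2 to 4 held an extreme value for 2, 4 and 7 members (4.55%, 9.09% and 15.9%, beside 8.51%, 8.33% and 14.1% of all genes).

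**Figure D4:**
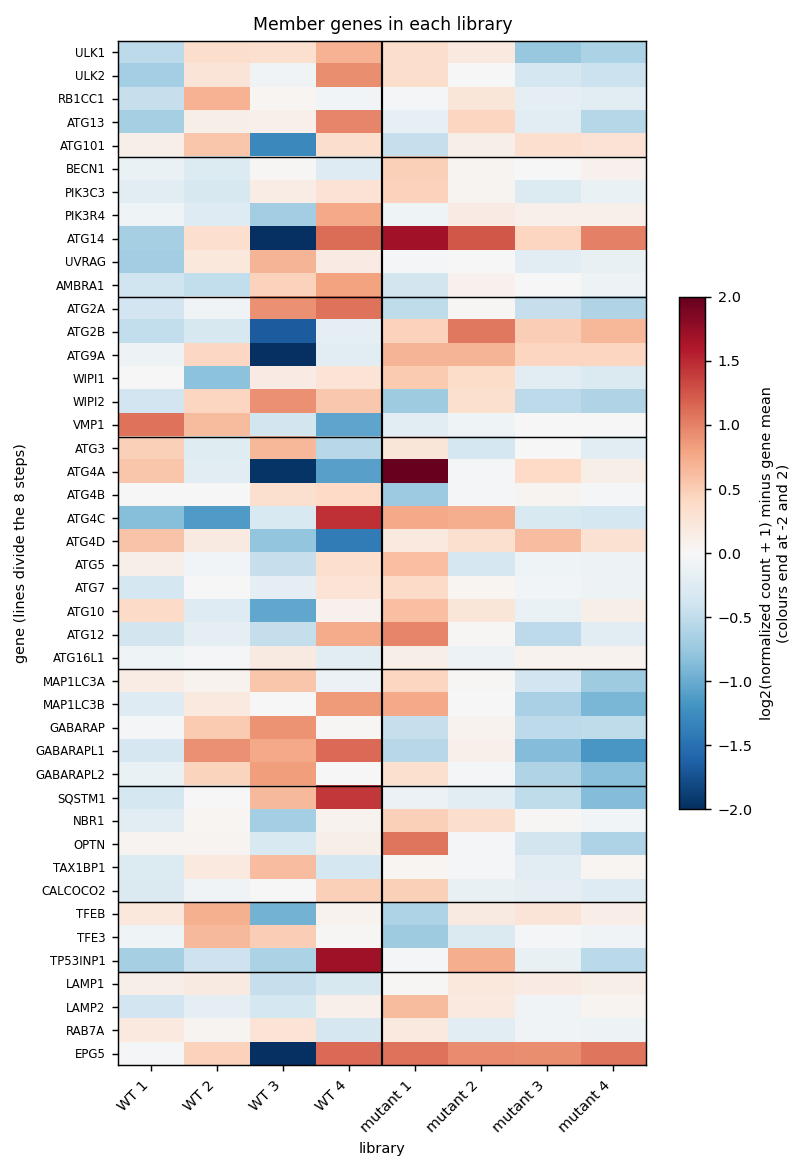
Log2(normalized count + 1) of each of the 44 autophagy genes in each library minus the gene's mean over the 8 libraries (colours end at -2 and 2; horizontal lines divide the 8 steps, the vertical line WT from mutant). The strongest colours are in WT replicates 3 and 4 and mutant replicate 1, while mutant replicates 2 to 4 are pale for most genes.

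Several genes around the machinery were separated between the groups, among them FLCN, MTOR and PRKAG2 of nutrient sensing. These 3 were named for the smallest p of their list, so their separation is partly a product of that choice. The shares of the list as a whole lay near those of all genes. Of 30 tested genes of mTORC1, AMPK and nutrient sensing, 1 was higher and 4 were lower at an unadjusted p under 0.05 in limma (16.7% of the list, beside 13.9% of all genes), with a median log2 difference of -0.01. Groups did not overlap for 1 gene higher and 3 genes lower in mutant libraries (13.3%, beside 11.4% of all genes). FLCN, the folliculin subunit of the complex that controls TFEB and TFE3 through mTORC1, had 717, 802, 954 and 1117 normalized counts across WT replicates 1 to 4, against 338, 424, 382 and 328 across mutant replicates 1 to 4. Every mutant library lay far below every WT library (log2 difference -1.27 ± 0.22 SE; limma adjusted p = 0.142), also without WT replicates 3 and 4 (-1.05). MTOR, the kinase that restrains autophagy when nutrients are plentiful, had 742, 801, 484 and 536 normalized counts across WT replicates 1 to 4, against 1087, 1259, 1336 and 1430 across mutant replicates 1 to 4. The groups did not overlap (log2 difference 1.02 ± 0.23 SE; limma adjusted p = 0.197; 0.72 without WT replicates 3 and 4). PRKAG2, a regulatory subunit of the energy sensor AMPK, was at -1.23 ± 0.42 (SE; limma adjusted p = 0.274), also without overlap, and -0.82 without WT replicate 3. In the authors' deposited table MTOR is called higher (log2 fold change 0.99, adjusted p = 0.00836) and FLCN and PRKAG2 lower (-1.28, adjusted p = 6.21e-05, and -1.45, adjusted p = 0.0445). Of 29 genes of the list with an adjusted p there, 1 is called higher and 2 lower, beside 4.54% of all genes. None of the 30 passed limma over all genes without weights, and FLCN alone passed with array quality weights (log2 difference -1.16, limma adjusted p = 0.0398).

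Downstream of the autophagosome, 3 of 36 lysosomal hydrolase and membrane protein genes were higher and 0 lower at an unadjusted p under 0.05 in limma (8.33%, beside 13.9%), with a median of 0.18. The lipase gene LIPA, the sialidase gene NEU1 and the iduronate sulfatase gene IDS had log2 differences of 1.39 ± 0.55, 0.99 ± 0.41 and 0.51 ± 0.22 (SE), without overlap of the groups for LIPA and IDS. In the whole list groups did not overlap for 3 genes higher and 1 gene lower in mutant libraries (11.1%, beside 11.4% of all genes). LIPA was at 0.77 without WT replicate 3 and NEU1 at 0.36 without WT replicates 3 and 4. Of 13 tested genes of the vacuolar proton pump, which acidifies the lysosome, 2 were higher and 0 lower (15.4%, beside 13.9%), with a median of 0.16. Groups of the pump genes did not overlap for 1 gene higher and 1 gene lower in mutant libraries (15.4%, beside 11.4% of all genes). ATP6V1A, its catalytic subunit, had 273, 206, 111 and 133 normalized counts across WT replicates 1 to 4, against 559, 368, 423 and 499 across mutant replicates 1 to 4, without overlap (log2 difference 1.42 ± 0.32 SE; limma adjusted p = 0.197). It was 0.94 without WT replicates 3 and 4. ATP6V0A1, of the membrane sector, was at 1.03 ± 0.42 and the accessory subunit gene ATP6AP1 at 0.60 ± 0.31 (SE).

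Of 16 genes of autophagosome and lysosome fusion, 0 were higher and 1 was lower at an unadjusted p under 0.05 in limma (6.25%, beside 13.9%), with a median of -0.06. That was VPS16, a core subunit of the tethering complexes HOPS and CORVET, with 621, 538, 969 and 989 normalized counts across WT replicates 1 to 4, against 274, 414, 378 and 383 across mutant replicates 1 to 4, without overlap (log2 difference -1.07 ± 0.27 SE; limma adjusted p = 0.218; -0.69 without WT replicates 3 and 4). VPS18, of the same complexes, was at 0.70 ± 0.32 (SE), also without overlap but higher in mutant libraries, and the tether gene TECPR1 at -1.26 ± 0.58 (SE). Over the fusion list groups did not overlap for 1 gene higher and 2 genes lower in mutant libraries (18.8%, beside 11.4% of all genes). Of 22 further autophagy factors and receptors, 1 was higher and 6 were lower (31.8%, beside 13.9% of all genes, of which 7.06% higher and 6.8% lower), with a median of -0.15. Among these 22, groups did not overlap for 1 gene higher and 4 genes lower in mutant libraries (22.7%, beside 11.4% of all genes). BNIP3, a mitophagy receptor of the outer mitochondrial membrane, had 2990, 1817, 1623 and 3442 normalized counts across WT replicates 1 to 4, against 1225, 1214, 933 and 986 across mutant replicates 1 to 4. Its groups did not overlap, and the log2 difference of -1.12 ± 0.29 (SE; limma adjusted p = 0.218) was -1.11 without WT replicates 3 and 4. WDR45B, a PI3P-binding relative of the WIPI proteins, was at -0.76 ± 0.21, and FKBP8, another mitophagy receptor, at -0.56 ± 0.19 (SE), both without overlap of the groups. The authors' deposited table calls ATP6V1A higher (adjusted p = 0.0104) and VPS16, BNIP3, WDR45B and FKBP8 lower (adjusted p = 0.0167, 0.0123, 0.0266 and 0.0265). They are 1 of 13 proton pump genes, 1 of 16 fusion genes and 3 of 22 further factors, beside 4.54% of all genes. Of the 36 lysosomal genes 0 are called there. Among 6 genes of chaperone-assisted selective autophagy 0 had an unadjusted p under 0.05 (13.9% of all genes), with a median of -0.02. DNAJB6, HSPA8 and STUB1 were at -0.36 ± 0.24, 0.59 ± 0.45 and -0.10 ± 0.21 (SE). None of the genes of these lists passed limma over all genes without weights. With array quality weights BNIP3 (adjusted p = 0.0416) and ATP6V0A1 (adjusted p = 0.0473) passed limma, beside 0.789% of all genes.

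**Figure D5:**
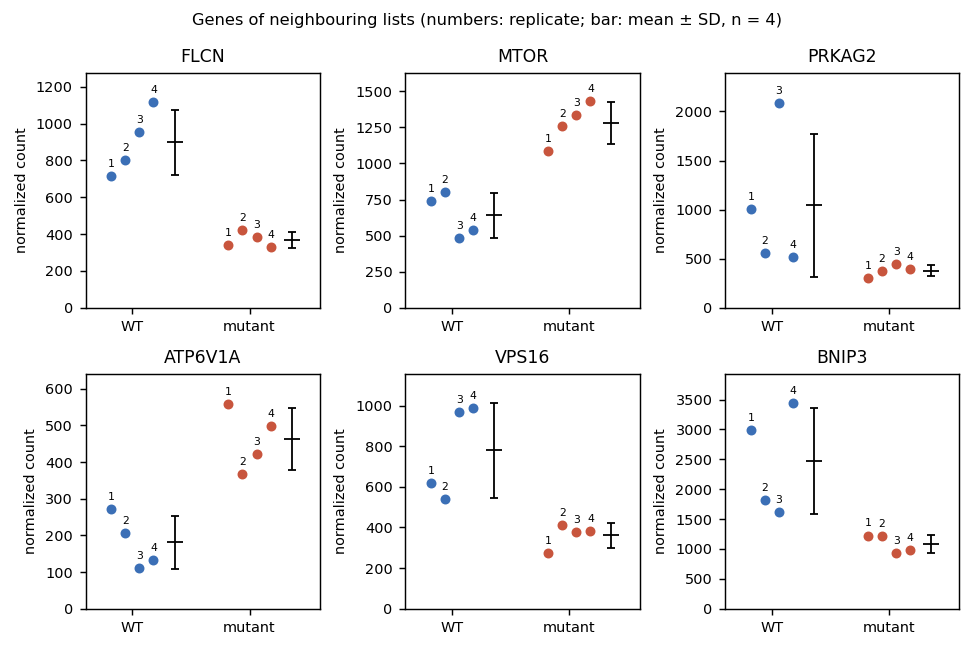
Normalized counts of 6 genes from the lists of nutrient sensing, proton pump, fusion and further autophagy factors in each library (points, numbered by replicate; bars: mean ± SD, n = 4). In each panel all mutant libraries lie on one side of all WT libraries, higher for MTOR and ATP6V1A and lower for FLCN, PRKAG2, VPS16 and BNIP3. The genes were picked from those with the smallest p in their lists, so the separation is partly a product of that choice. ATP6V0A1, ATP6AP1 and TECPR1, named from the same lists, overlap and are not shown. Groups did not overlap for 11.4% of all genes.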

How the data were processed

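RNA of left ventricular tissue from 8 pigs was sequenced after poly(A) selection, per the labels' protocols. The deposited table holds signal per gene, the normalized count, in which each library's reads are scaled by a single factor, as the values show. The authors' own comparison stands beside it, per the file headers: a log2 fold change, the standard error of that, a Wald score, and the p-value before and after adjustment. DESeq2 was used, per the submitters' processing notes, and GRCh38, a human build, is the one named there. No coordinates are printed. The aligner, the counter and its strand setting: not given in the sources used here. Whether reads of overlapping genes were told apart is therefore not known.

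All values (100%) were whole multiples of 1 read within 1e-06 reads, so reads were recovered. The 2 rows named for an annotation source (0.392% to 0.853% of reads) were left out. Genes with 10 or more normalized counts in 4 or more libraries were fitted with limma 3.58.1 (R 4.3.3; trended, robust prior) on log2(normalized count + 1), with Benjamini-Hochberg adjustment over all genes and a threshold of 0.05. The fit was tested on simulated counts with a common dispersion (spread beyond counting error) for all genes and both groups. The wider spread among WT libraries was not simulated, so the test does not cover it. Within-library ratios were compared by exact permutation over samples. Alternatives were edgeR 4.0.16 and DESeq2 1.42.0 on recovered reads, other scalings, filters, pseudocounts, priors and weights, and libraries left out.

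Members and lists were chosen with earlier results of these data known. Values of each library are given for members with an unadjusted p under 0.05, with non-overlapping groups, or called in the authors' deposited table. They are also given for the member with the highest mean normalized count of each step. Other members given library by library were chosen after their values were seen. From each neighbouring list the 3 genes with the smallest p are named. Transcript lengths were not used. Recovered reads served for the mitochondrial share, the within-library ratios, the ATG8 family shares, the edgeR and DESeq2 fits and some rescalings.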

Additional observations from a re-analysis of the deposited data

Results flagged for a closer look

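In the groups of 4 libraries, 1 library stood apart from the other 3 by Dixon's criterion for 8 of the 88 member and group combinations and for 1 of the 16 ratio and group combinations. Chance alone flags about 1 group in 20. Over all genes the share was 8.89% in WT and 11.3% in mutant libraries.

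Mutant replicate 1 was high for BECN1 (642 normalized counts), ATG4A (887) and CALCOCO2 (2701) and low for ATG4B (235). Mutant replicate 2 was high for WIPI2 (1008 normalized counts) and GABARAP (3169). WT replicate 4 was high for ATG4C (150 normalized counts) and TP53INP1 (1890). The log2 ratio of TFEB to TFE3 reads was low in WT replicate 3 (-1.66), where 50 reads of TFEB were counted.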

How the results depend on the processing

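No member passed under any of the 20 alternatives except with DESeq2 on the recovered reads, which called 2, ATG2B (adjusted p = 0.0195) and GABARAPL1 (adjusted p = 0.0482). That fit largely repeats the authors' own. edgeR called 0 of 44, and limma's adjusted p for ATG2B was 0.0725 with array quality weights. The 3 members at an unadjusted p under 0.05 became 5 with edgeR, 7 with DESeq2 and 5 without WT replicates 3 and 4 (16.0% of all genes), and 2 (4.55%) to 9 (20.5%) when 1 library was left out. The 9 were found without WT replicate 1, beside 18.8% of all genes, and the 2 without WT replicate 3, mutant replicate 3 or mutant replicate 4, beside 15.4%, 8.92% and 7.90%. ATG2A and SQSTM1 were among those of edgeR, DESeq2 and limma without WT replicate 1. The 2 members whose groups did not overlap became 10 without WT replicates 3 and 4 (29.2% of all genes then) and 2 to 9 when 1 library was left out (9 without WT replicate 1, 20.4% of all genes; 6 without WT replicate 4, 18.1%, or mutant replicate 2, 16.3%; 4 without mutant replicate 3, 12.8%). This count was not recomputed for tests and weights that leave the values unchanged. The members' median was -0.11 to 0.07 when 1 library was left out, and lay below the median of all genes in 19 of the 20 alternatives, the exception being without WT replicates 3 and 4 (0.05 beside 0.01). The median of all genes itself moved from 0.12 to -0.06 with DESeq2 and -0.02 with edgeR. The difference of the ATG2A to ATG2B ratio moved from -2.12 to -1.24 without WT replicates 3 and 4.

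Of 877 alternative values of single members 827 kept their sign, and the 50 that did not belong to 20 members. Without WT replicates 3 and 4 these were ULK2 (0.11), ATG13 (0.14), ATG101 (-0.26), UVRAG (0.15), AMBRA1 (0.34), ATG4D (-0.015), ATG5 (-0.0095), OPTN (-0.045), CALCOCO2 (0.16) and LAMP1 (-0.014). With array quality weights they were AMBRA1 (0.19), ATG5 (-0.13), ATG12 (-0.16) and OPTN (-0.44), with scaling to nuclear reads CALCOCO2 (0.033) and TFEB (0.062), with quantile normalization ATG5 (-3.02e-05) and TP53INP1 (-0.00997), and with edgeR and DESeq2 TP53INP1 (-0.32 in each). With 1 library left out the values ranged from -0.48 to 0.060 for ULK2, -0.28 to 0.10 for RB1CC1, -0.53 to 0.015 for ATG13, -0.26 to 0.35 for ATG101, -0.10 to 0.15 for PIK3C3, -0.063 to 0.42 for PIK3R4, -0.45 to 0.011 for UVRAG, -0.39 to 0.039 for AMBRA1, -0.053 to 0.32 for WIPI1, -0.52 to 0.19 for VMP1, -0.39 to 0.018 for ATG3, -0.16 to 0.15 for ATG5, -0.17 to 0.40 for ATG12, -0.32 to 0.24 for OPTN, -0.22 to 0.10 for TAX1BP1, -0.22 to 0.10 for CALCOCO2, -0.34 to 0.21 for TFEB and -0.23 to 0.57 for TP53INP1. The cause was not tested. All 359 alternative values of the 18 genes named from other lists kept their sign. Those genes were picked for the smallest p of their lists, which favours a stable sign. The count is therefore not comparable with that of the members. The calls of these 18 genes were not as stable. With array quality weights limma called FLCN, BNIP3 and ATP6V0A1, beside 0.789% of all genes. DESeq2 called FLCN, MTOR, PRKAG2, ATP6V1A, VPS16, BNIP3, WDR45B and FKBP8, beside 4.56% of all genes. No paired analysis was possible because the labels number the pigs separately and the groups share no number. Depth limits WT replicate 3 most, where ATG14 and EPG5 had no read and ATG4C 9.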
